A study of Mus musculus with 12 samples.

Results

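The subject is the ERVL class of mouse repeats, which includes MERVL, and its DNA methylation level in stem cells, primordial germ cells (PGCs) and PGC-like cells (PGCLCs). Members were the repeat rows whose annotated class was exactly LTR/ERVL, leaving out the ERVL-MaLR class and 13 rows whose class carried a question mark, and that had a level in all 12 libraries. This gave 862 of the 133311 features with a level in every library, or 862 of 34707 repeat rows and 862 of the 1685 ERVL rows seen in at least 1 library. A row holds 1 DNA methylation level for an element name and a span of bases in that element's consensus, with no genome position, so that a row may pool several copies. The members carried 89 element names. Of these, 8 names began with MERVL or MT2 and held 221 rows (79 of MT2A, 77 of MT2B, 23 of MT2B1, 15 of MT2B2, 12 of MERVL_2A-int, 8 of MERVL-int, 5 of MT2C_Mm and 2 of MT2_Mm), and the other 641 rows are called other ERVL. Of the MERVL and MT2 rows in at least 1 library, 44.5% had a level in all 12, against 54.0% of other ERVL rows.

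ERVL elements are endogenous retroviruses, named after the leucine tRNA that primes their reverse transcription, and most of their copies survive as solitary long terminal repeats (LTRs). MERVL is a member that was active in the mouse lineage in recent evolution. Its internal part (MERVL-int) encodes Gag and Pol, its LTR (MT2_Mm) is a promoter, and both are known for a burst of transcription in the 2-cell embryo and in rare 2-cell-like cells of ESC cultures, where the LTR also starts chimeric transcripts of host genes. MT2A, MT2B and MT2C_Mm are related, mostly older LTRs, and RMER10, RMER15, MLT2, LTR16 and LTR33 are further ERVL families, several of them ancient. In ESCs, silencing of MERVL is known to rest largely on histone-modifying complexes. DNA methylation of most repeats falls as PGCs migrate and settle in the gonad.

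Reduced representation bisulfite sequencing (RRBS, which reads CpG sites near cuts of the enzyme MspI) covered 6 groups of 2 libraries, all of C57BL6 mice. ESCs were a female ES cell line from fertilized embryos, and pESCs a parthenogenetic line from activated oocytes, which hold no paternal genome, and both lines carried Actin-GFP. E9.5 and E12.5 PGCs were sorted from female embryos at embryonic day 9.5 or 12.5 by the surface markers SSEA1 and CD61, or by SSEA1 alone. ESC-PGCLCs and pESC-PGCLCs came from the respective line, which was first turned into epiblast-like cells with bFGF, activin A and knockout serum replacement, then cultured with BMP4, SCF, EGF and LIF and sorted for SSEA1 and CD61. The study describes its RRBS replicates as biological, but the labels do not name the culture or the embryos behind each library, and the p-values measure the spread between these libraries. A level averages over cells, and a change in every cell and a change in the share of cells cannot be told apart. Methylation levels of repeats do not mark a cell type, and the identity of the sorted cells was not checked from them.

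The deposited levels come without read depth, so no counting interval can be given. The 862 rows were drawn from 999 to 1550 ERVL rows per library, and between 0 and 9 of them stood at exactly 0% and between 0 and 6 at exactly 100% in a library. Replicates of E9.5 PGCs differed by a mean of 3.61 points over the rows, and 49 of 862 rows differed by 10 points or more. The 2 ESC replicates stood apart from each other. Replicate 1 was above replicate 2 by a mean of 9.52 points, and 431 of 862 rows differed by 10 points or more. Their ERVL means were 42.9% and 33.3%, on either side of the 38.5% and 36.8% in the pESC libraries. pESC replicate 1 was above pESC replicate 2 by a mean of 1.76 points, and the differences between replicates correlated across ERVL rows between the 2 lines (r = 0.48, a description). Counts that involve ESCs are also given without ESC replicate 1 where it moved them. The values do not show which of the 2 ESC libraries is the unusual one, so such a count is not a corrected count.

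The mean level of MERVL and MT2 rows was highest in E9.5 PGCs, with 65.6% and 66.0% in the 2 libraries. It was 42.4% and 43.7% in E12.5 PGCs, 53.6% and 53.0% in ESC-PGCLCs, while pESC-PGCLCs had 48.8% and 48.0%. ESCs had 46.0% and 35.7%, and pESCs 42.3% and 40.2%. The 4 groups of PGCs and PGCLCs did not overlap with each other, whereas ESCs overlapped with pESCs and with E12.5 PGCs. Other ERVL rows ran at lower levels in the same order of PGC and PGCLC groups, from 60.5% ± 0.11 (SD, n = 2) at E9.5 to 38.2% ± 0.35 at E12.5, with 48.9% ± 0.19 in ESC-PGCLCs and 44.2% ± 0.77 in pESC-PGCLCs. ESCs had 37.2% ± 6.55 and pESCs 36.4% ± 1.16.

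In each of the 12 libraries MERVL and MT2 rows were above other ERVL rows, by 3.23 to 5.59 points. The gap was 3.71 ± 0.68 points in ESCs and 4.84 ± 0.33 in pESCs, 5.35 ± 0.34 at E9.5 and 4.80 ± 0.61 at E12.5, and 4.39 ± 0.62 in ESC-PGCLCs and 4.22 ± 0.19 in pESC-PGCLCs. It was much smaller than the change of either set between E9.5 and E12.5. The 20 MERVL internal rows alone were not above other ERVL rows throughout. They were below in both E12.5 libraries (37.8% and 38.3% against 38.0% and 38.5%). They were also below in E9.5 replicate 1 (60.3% against 60.5%) and ESC-PGCLC replicate 2 (46.8% against 49.1%), and above in every other library. MT2_Mm had a mean of 53.7% at E9.5, against 60.5% for other ERVL rows. With the 91 rows of RMER10A and RMER10B left out, a choice made after their values were seen, the gap was 1.36 to 4.38 points over the 12 libraries, and in ESCs it was 1.73 points. Against all repeat rows, the ERVL mean was lower in every library, by 7.88 to 8.87 points in ESCs and pESCs and by 3.19 to 5.63 points in PGCs and PGCLCs. ERVL-MaLR, the related class left out by name, stayed within 1.25 to 2.08 points above ERVL in all 12 libraries.

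**Figure D1:**
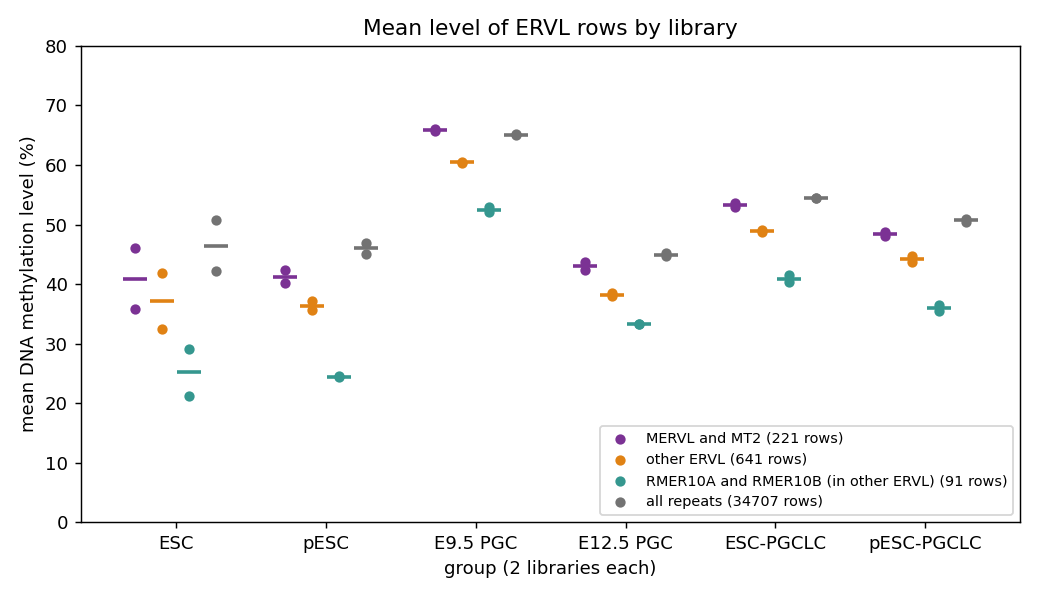
Mean DNA methylation level (%, y axis) of MERVL and MT2 rows, other ERVL rows, the RMER10A and RMER10B rows among these, and all repeat rows, for each of the 6 groups (x axis); each point is 1 library and each bar the mean of 2. E9.5 PGCs sit highest in all 4 sets, MERVL and MT2 points lie above other ERVL points in every library, and the 2 ESC libraries are the farthest apart.

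Relative to E9.5 PGCs, the ERVL mean at E12.5 was 63.9% of its starting level, close to the 64.3% of ERVL-MaLR rows and the 66.7% of all features, compared with 69.0% for all repeat rows, 70.7% for ERVK and 68.3% for ERV1. MERVL and MT2 rows kept 65.4% and other ERVL rows 63.3%. ESCs and pESCs stood at 61.6% and 60.9% of the E9.5 ERVL mean, ESC-PGCLCs at 81.0% and pESC-PGCLCs at 73.2%. These ratios are descriptions of group means and were not tested.

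The LTR names of the MT2 group were close to each other at E9.5, with 66.1% for MT2A, 67.5% for MT2B, 65.4% for MT2B1 and 65.7% for MT2B2, and had group means between 41.7% and 45.2% at E12.5. MT2_Mm, the LTR of MERVL itself, had the lowest E9.5 mean of the 8 MERVL and MT2 names, with 53.7% ± 0.33 (SD, n = 2), and it was at 44.0% ± 5.50 in ESCs and 46.6% ± 0.30 in pESCs. MT2C_Mm was the lowest of the 8 names in stem cells, with 29.5% ± 8.24 in ESCs and 29.0% ± 1.22 in pESCs, and had 61.3% ± 0.06 at E9.5.

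Among names with 5 rows or more, RMER10B had the lowest mean in stem cells, although 7 names with 1 to 3 rows each had a lower ESC mean. RMER10B had 17.7% ± 4.36 (SD, n = 2) in ESCs and 17.2% ± 0.16 in pESCs, 50.2% ± 0.52 at E9.5 and 32.4% ± 1.09 at E12.5, and 39.1% ± 1.15 and 33.3% ± 0.88 in ESC-PGCLCs and pESC-PGCLCs. RMER10A had 28.9% and 28.0% in ESCs and pESCs and 53.7% at E9.5. MLT2B5, an LTR of an old ERVL family, was at 23.5% in ESCs and 59.8% at E9.5, and MLT2F at 30.6% and 68.1%. The internal element ERVL-B4-int was closer to its E9.5 level in stem cells, with 59.3% ± 5.25 in ESCs, 57.0% ± 0.11 in pESCs and 64.5% ± 0.79 at E9.5. LTR41B had the highest E9.5 mean among names with 5 rows or more, at 79.2% ± 0.25.

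**Figure D2:**
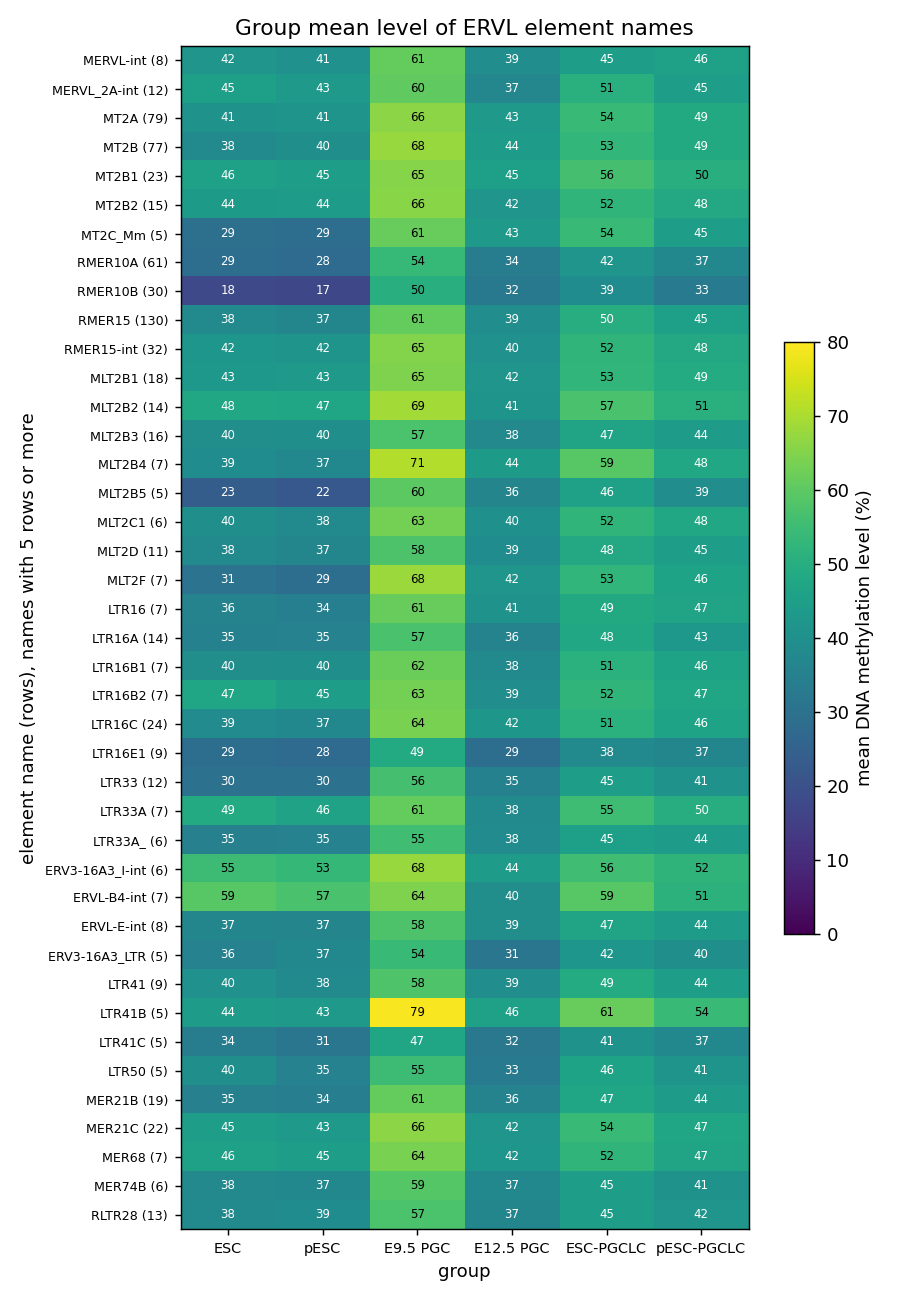
Group mean DNA methylation level (%, colour and printed value) of the ERVL element names with 5 rows or more (y axis, number of rows in brackets, ordered by family) in the 6 groups (x axis). The E9.5 PGC column is the brightest for every name, and RMER10B is the darkest name in ESCs and pESCs, at 18% and 17%.

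MERVL internal parts and MT2 LTRs did not keep the same order across groups. The 201 MT2 LTR rows had a mean of 40.6% ± 7.33 (SD, n = 2) in ESCs, 41.1% ± 1.42 in pESCs and 66.3% ± 0.19 at E9.5, and the 20 MERVL internal rows 43.7% ± 6.32, 42.3% ± 2.14 and 60.7% ± 0.56. The LTR mean minus the internal mean was negative in all 4 stem cell libraries, from −3.86 to −0.617 points, and positive in all 8 PGC and PGCLC libraries, from 3.25 to 6.85 points. By medians over rows the order in pESCs was the other way, with 43.4% for the LTRs and 42.0% for the internal rows. Most of these LTR rows were not MT2_Mm, the LTR of MERVL itself, which had 2 rows. MT2_Mm was above MERVL-int in ESCs (44.0% against 41.6%) and pESCs (46.6% against 40.5%), and below it at E9.5 (53.7% against 61.1%). The means were 39.6% against 39.4% at E12.5, 47.9% against 44.9% in ESC-PGCLCs and 43.8% against 45.9% in pESC-PGCLCs. Apart from RMER15-int, 25 rows were internal parts of other ERVL elements, and these were set against the ERVL mean, not against their own LTRs. They were above it by 10 to 10.5 points in the 4 stem cell libraries. In the 8 PGC and PGCLC libraries they were between 0.379 points below and 3.66 points above it. The 32 RMER15-int rows did keep their order, with a mean above that of the LTR RMER15 in every group. They had 41.9% against 37.8% in ESCs, 65.3% against 61.0% at E9.5 and 40.4% against 39.4% at E12.5.

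The 8 MERVL-int rows covered different spans of the consensus and differed widely. The full-length row (bases 1 to 5380) had 45.2% and 36.9% in ESCs, 40.4% and 32.3% in pESCs, 65.7% and 67.6% at E9.5, 40.7% and 44.3% at E12.5, 55.7% and 48.9% in ESC-PGCLCs, while pESC-PGCLCs had 51.2% and 49.2%. E9.5 PGCs were above every other library in it. The row at bases 20 to 1365 was low everywhere, at 0.98% to 2.79% in the 4 stem cell libraries, 10.8% to 12.7% in the 4 PGC libraries and 5.50% to 8.91% in the 4 PGCLC libraries, and the 3 ranges did not overlap.

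The row at bases 3561 to 4232 had the largest difference between stem cells and E9.5 PGCs of the 8, with 31.1% and 21.1% in ESCs, 23.3% and 22.3% in pESCs, and 78.0% and 76.5% at E9.5. It had 54.8% and 43.4% at E12.5, 45.2% and 40.1% in ESC-PGCLCs, while pESC-PGCLCs had 38.9% and 39.2%. The row at bases 68 to 177 went another way, with 75.5% and 52.3% in ESCs and 59.8% and 48.7% in pESCs against 54.5% and 64.4% at E9.5, and E12.5 PGCs had 32.2% and 28.6%. Stem cells overlapped with E9.5 PGCs in this row and were above E12.5 PGCs in all libraries.

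The MT2_Mm row at bases 1 to 493 had 40.7% and 34.9% in ESCs, 37.1% and 38.5% in pESCs, 57.1% and 54.3% at E9.5, 37.6% and 37.7% at E12.5, 44.3% and 41.4% in ESC-PGCLCs, while pESC-PGCLCs had 42.2% and 41.4%. The shorter MT2_Mm row (bases 45 to 493) had 55.1% and 45.3% in ESCs and 55.7% and 55.1% in pESCs, and 50.8% and 52.7% at E9.5. In the shorter row both pESC libraries and 1 ESC library were above both E9.5 libraries. Among the 5 MT2C_Mm rows, that at bases 121 to 468 had 3.16% to 5.76% in the 4 stem cell libraries, 51.9% and 52.1% at E9.5, then 42.6% and 39.2% at E12.5, whereas the other 4 rows had stem cell levels between 14.9% and 45.7%.

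**Figure D3:**
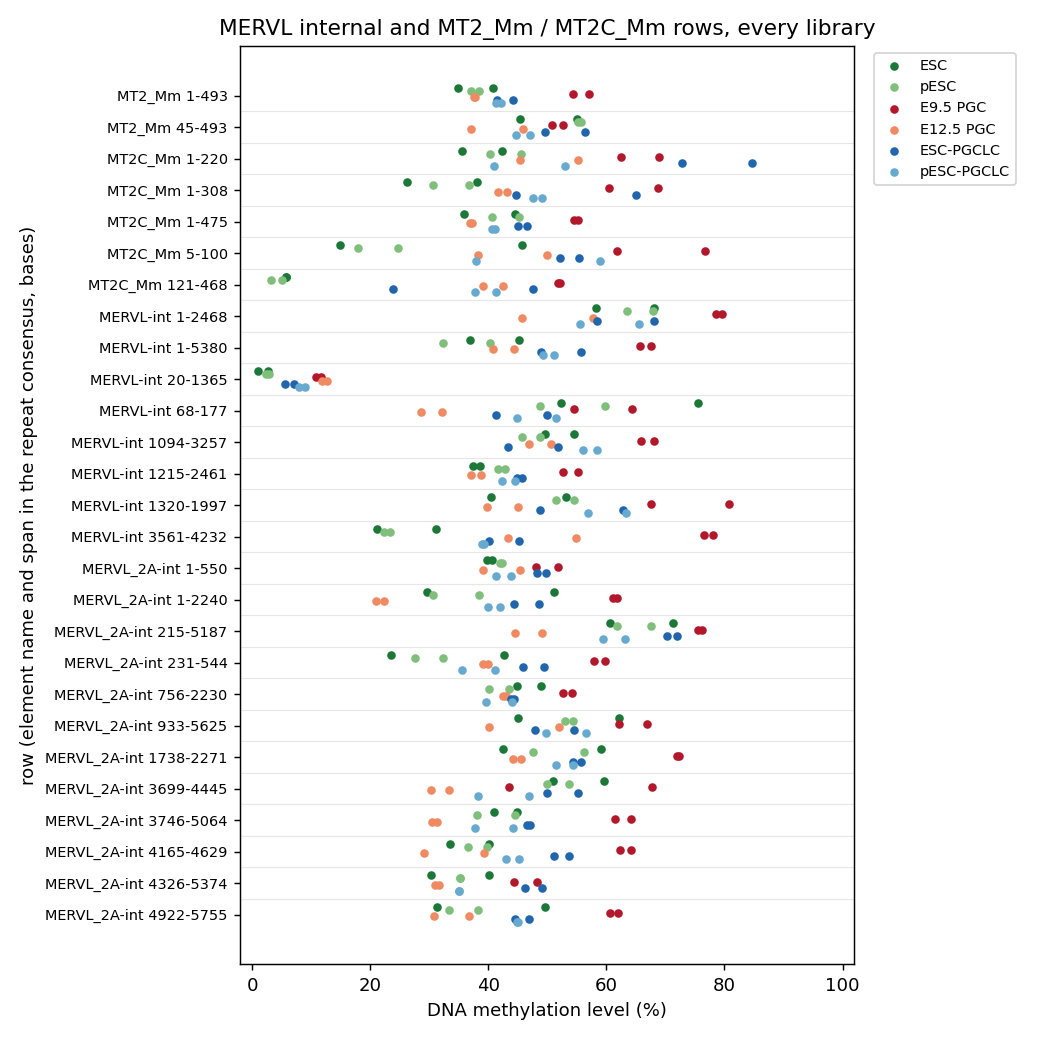
DNA methylation level (%, x axis) of each MT2_Mm, MT2C_Mm, MERVL-int and MERVL_2A-int row (y axis, element and span in the repeat consensus in bases); each point is 1 library, coloured by group, 2 per group. E9.5 PGC points lie farthest right in most rows, and MERVL-int at bases 20 to 1365 does not exceed 12.7% in any library.

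Over all 862 rows, the 4 stem cell libraries lay below both E9.5 libraries in 734 rows (85.2%) and above both in 5 rows (0.58%). All repeat rows gave 84.1% and 1.41%. Rows with a mean under 15% in the 4 stem cell libraries and of at least 40% at E9.5 numbered 80 (9.28%), against 4.77% of all repeat rows; 14 were MERVL or MT2 rows (6.33% of 221) and 66 other ERVL rows (10.3% of 641). RMER10B gave 8 of its 30 rows to this class (26.7%). RMER10A gave 7 of 61 and RMER15 15 of 130, or 11.5% each, near the share of all ERVL rows. The class was not limited to RMER names, since LTR33 names gave 5 of 28 rows (17.9%) and MLT2 names 12 of 89 (13.5%). In 18 of 30 RMER10B rows every stem cell library was below every PGC and PGCLC library, compared with 24.6% of all ERVL rows and 15.3% of all repeat rows.

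Rows of this kind had clear values in single libraries. RMER10B at bases 289 to 379 had 0% and 1.61% in ESCs, 0% and 0% in pESCs, 90.6% and 95% at E9.5, 51.9% and 58.1% at E12.5, 69.4% and 65.5% in ESC-PGCLCs, while pESC-PGCLCs had 58.9% and 59.6%. MT2B at bases 155 to 278 had 1.49% to 3.42% in the 4 stem cell libraries, 83.8% and 83.5% at E9.5, then 54.9% and 52.6% at E12.5. A further 17 rows (1.97%) stayed under 15% in all 12 libraries, of which 5 were RMER10 rows and 2 were MERVL or MT2 rows.

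In 5 rows (0.58%, against 1.07% of all repeat rows) all 4 stem cell libraries were above every PGC and PGCLC library. These rows, singled out after their values were seen, were ERVL-B4-int at bases 3544 to 4436, ERV3-16A3_LTR at 66 to 410, LTR84b at 73 to 414, MER73 at 84 to 680 and MT2B at 128 to 264. ERVL-B4-int had 75.3% and 74.8% in ESCs and 78.3% and 78.1% in pESCs, 36.4% and 34.9% at E9.5, 19.7% and 25% at E12.5, 45.9% and 42.5% in ESC-PGCLCs, while pESC-PGCLCs had 47.5% and 38.9%. The MT2B row had 52.7% and 25.6% in ESCs and 51.6% and 30.9% in pESCs, and 10.6% to 22.7% in the 8 PGC and PGCLC libraries. Span length was almost unrelated to level, with a Spearman correlation of 0.039 across the 862 rows, which are not independent samples.

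**Figure D4:**
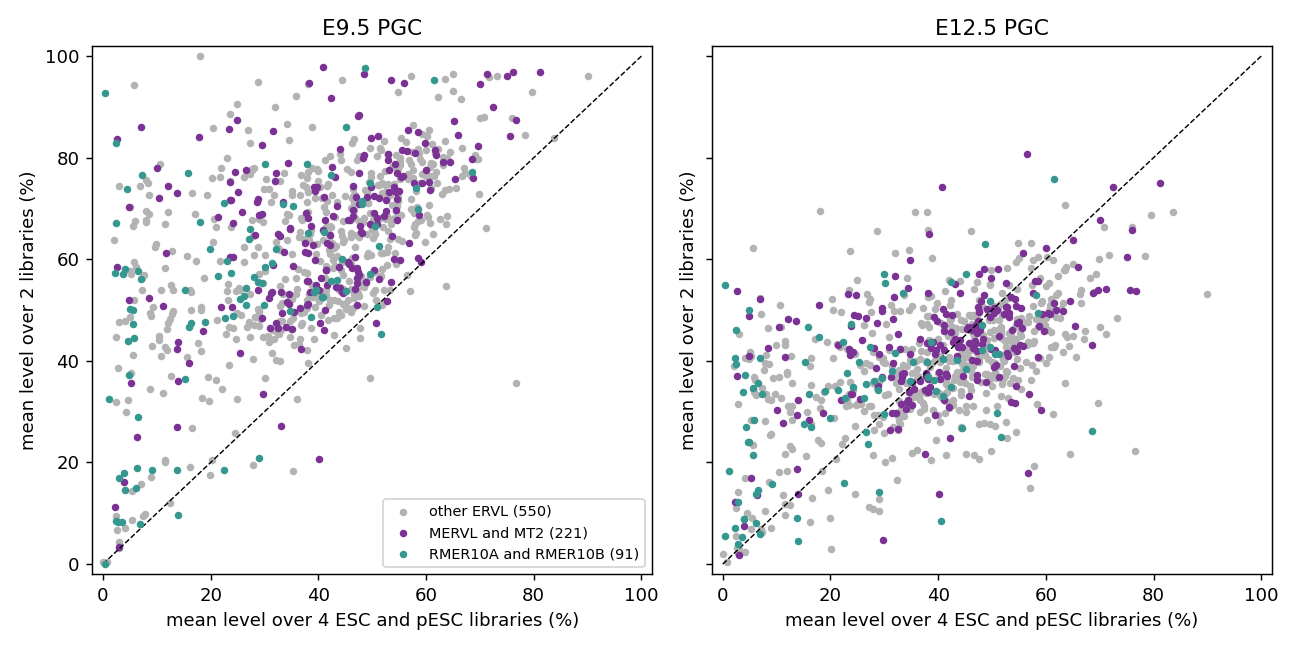
Mean DNA methylation level of each of the 862 ERVL rows over the 4 ESC and pESC libraries (%, x axis) against its mean over the 2 E9.5 PGC libraries (left, %, y axis) or the 2 E12.5 PGC libraries (right); the dashed line marks equal levels. Nearly all points lie above the line for E9.5 PGCs and on both sides of it for E12.5 PGCs, and many RMER10A and RMER10B points lie at the left edge, low in stem cells.

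Groups were compared with limma on log2 odds of the level. The fit covered every feature, and p-values were adjusted over all of them by the Benjamini-Hochberg method. Calls were limited to rows with an adjusted p under 0.05 and a difference of 10 points or more between the means. The median level of all features differed between groups by −1.12 log2 odds for E12.5 against E9.5 PGCs and by 1.17 for ESC-PGCLCs against ESCs, so counts after centring every library on its median are also given.

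From E9.5 to E12.5, which spans migration and the early gonad, 725 of 862 ERVL rows were called and all 725 fell (84.1%). Of all features tested 49.6% were called, and of all repeat rows 84.9%, so the share of ERVL rows was near that of repeats in general. MERVL and MT2 rows gave 184 of 221 (83.3%) and other ERVL rows 541 of 641 (84.4%), and the median difference was −22.0 points over ERVL and −19.5 over all repeat rows. By name, 68 of 79 MT2A, 62 of 77 MT2B, 19 of 23 MT2B1, 13 of 15 MT2B2, 3 of 5 MT2C_Mm, 7 of 8 MERVL-int and 11 of 12 MERVL_2A-int rows fell, although the sign turned after centring in the MERVL_2A-int rows at 4326 to 5374 and 756 to 2230. The MT2_Mm row at bases 1 to 493 fell by 18 points (log2 odds difference −1.04 ± 0.11 SE, limma adjusted p = 0.00033), whereas the row at 45 to 493 was not called. After centring, 248 ERVL rows were called, 230 lower and 18 higher.

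The largest falls among other ERVL rows were in LTR16E2 at bases 466 to 562 and LTR16C at 335 to 466. LTR16E2 had 81.4% and 81.0% at E9.5, then 21.1% and 22.2% at E12.5, a difference of −59.5 points (limma adjusted p = 7.47e-05). LTR16C went from 94.3% and 96.4% to 41.5% and 37.3%, and RMER15 at 373 to 461 from 79.6% and 79.7% to 29.7% and 24.2%. The replicates of a group were much closer to each other than the 2 groups in all 3 rows. Among MERVL and MT2 rows, MT2A at 69 to 238 dropped from 77.9% and 78.1% to 28.3% and 32.4% (limma adjusted p = 9.52e-05). MT2B at 64 to 599 had a larger difference, −67.5 points (limma adjusted p = 0.0283), but 71.1% and 100% against 0% and 36.0%, so its libraries were far apart within both groups.

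Both kinds of PGCLC were compared with the same E9.5 libraries, so these comparisons share their controls. Against E9.5 PGCs, 445 ERVL rows (51.6%) were called in ESC-PGCLCs, 441 of them lower, where 29.8% of all features and 41.4% of repeat rows were called. In pESC-PGCLCs 606 rows (70.3%) were called, all lower, where 40.3% of all features and 62.7% of repeat rows were. MERVL and MT2 rows gave 114 of 221 and 158 of 221, and other ERVL rows 331 of 641 and 448 of 641. ERVL-MaLR rows were called at 52.9% and 71.4%. After centring the calls were 71 lower and 21 higher in ESC-PGCLCs, and 157 lower and 7 higher in pESC-PGCLCs.

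RLTR28 at bases 6 to 514, an LTR, had the largest fall in both, from 100% in both E9.5 libraries to 31.6% and 46.9% in ESC-PGCLCs, while pESC-PGCLCs had 43.8% and 34.2%. RMER10A at 10 to 441 had 82.9% and 74.7% at E9.5, 25.6% and 34.9% in ESC-PGCLCs, while pESC-PGCLCs had 26.8% and 26.0%, and both PGCLC groups were also below the 49.5% and 64.6% at E12.5. The MERVL-int row at 3561 to 4232 fell by 34.6 points (limma adjusted p = 0.00125) and, for the parthenogenetic line, 38.2 points (limma adjusted p = 0.000474). The full-length MERVL-int row fell by 14.3 and 16.4 points, and the MT2_Mm row at 1 to 493 by 12.9 and 13.9 points. Among the 4 rows that rose in ESC-PGCLCs were RMER15 at 442 to 575, with 76.2% and 78.2% at E9.5 and 95.5% and 100% in ESC-PGCLCs, and LTR33A at 288 to 514, with 62.7% and 56.8% against 71.8% and 85.6%.

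Against E12.5 PGCs, whose libraries the 2 PGCLC comparisons again share, ERVL rows were mostly higher. In ESC-PGCLCs 342 rows (39.7%) were called, 340 higher and 2 lower, where 22.8% of all features and 39.7% of repeat rows were called. The 2 sets gave 83 of 221 MERVL and MT2 rows and 259 of 641 others. LTR33A at 288 to 514 rose by 44.1 points, from 33.0% and 36.3%, and LTR16E2 at 466 to 562 by 38.6 points. After centring, 100 rows were higher and 12 lower.

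In pESC-PGCLCs against E12.5 PGCs, 112 rows (13.0%) were called, 109 higher and 3 lower, where 7.10% of all features and 12.5% of repeat rows were called. MERVL and MT2 rows gave 24 of 221. This count depended on single libraries, with 12 or 24 calls without one or the other E12.5 library and 0 or 3 without one or the other pESC-PGCLC library. It was 7 in a fit of all 12 libraries, and after centring 11 rows were higher and 1 lower. LTR33 at 375 to 513 rose by 29.6 points, from 15.7% and 14.3% to 45.1% and 44.2%. The row MERVL_2A-int at bases 1 to 2240, an internal part, had 21.0% and 22.4% at E12.5, while pESC-PGCLCs had 39.9% and 41.9% (limma adjusted p = 0.00946).

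The origin of the cells, fertilized or parthenogenetic, was compared at both stages. Between pESCs and ESCs no ERVL row was called with limma (0 of 862, 13 at an unadjusted p under 0.05), and 0% of all features and 0% of repeat rows were called. The median difference was −0.51 points and its sign rested on the ESC libraries, since it was 4.07 points when ESC replicate 1 was left out and −5.29 points when ESC replicate 2 was, and a difference smaller than this spread was not detectable. Without pESC replicate 1, 6 rows were called, 4 higher and 2 lower.

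Between ESC-PGCLCs and pESC-PGCLCs 3 ERVL rows were called, all lower in pESC-PGCLCs (0.348%, against 0.0948% of all features and 0.134% of repeat rows). MT2B at bases 163 to 277 had 84.1% and 85.0% in the former and 68.8% and 66.3% in the latter (limma adjusted p = 0.0368). LTR16D at 518 to 651 had 74.5% and 72.3% against 53.4% and 55.5%, and LTR101_Mam at 340 to 627 had 77.4% and 80.4% against 59.0% and 57.8%. The unadjusted p was under 0.05 in 260 rows and the median difference was −4.69 points over ERVL rows against −3.59 over all repeat rows. The 3 calls became 18 with an offset of 0.1 and 23 on untransformed levels, all lower, and 0 after centring, in a fit of all 12 libraries or without either pESC-PGCLC library. Without ESC-PGCLC replicate 1 there were 9, 4 of them higher. The mean level over MERVL and MT2 rows was 53.6% and 53.0% in ESC-PGCLCs, while pESC-PGCLCs had 48.8% and 48.0%, which did not overlap.

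On induction of PGCLCs, 206 ERVL rows (23.9%) were called in ESC-PGCLCs against ESCs, 204 higher and 2 lower, where 14.6% of all features and 15% of repeat rows were called. MERVL and MT2 rows gave 47 of 221 and other ERVL rows 159 of 641, and 23.1% of ERVL-MaLR rows were called. In pESC-PGCLCs against pESCs 143 rows (16.6%) were called, 140 higher and 3 lower, where 9.66% of all features and 9.79% of repeat rows were. Called were 25 of 221 MERVL and MT2 rows and 118 of 641 others. The study did not measure methylation in the epiblast-like cells between, so these are differences between the start and the end of induction. The directions of the calls depended on the scale. After centring, 93 rows were higher and 195 lower for ESC-PGCLCs against ESCs, and 77 higher and 208 lower for pESC-PGCLCs against pESCs. Without ESC replicate 1 the former count was 380, and without ESC-PGCLC replicate 1 or 2 it was 133 or 117. Without pESC replicate 1 the latter was 83, and without pESC-PGCLC replicate 1 or 2 it was 68 or 78.

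Of the 30 RMER10B rows 17 rose in ESC-PGCLCs and 16 in pESC-PGCLCs, where 14.6% and 9.66% of all features were called. The median difference over all 30 rows was 20.6 and 16.5 points, against 9.09 and 4.82 points over all ERVL rows. RMER10B was singled out after its low level in stem cells was seen, a choice that favours a rise, and these counts are without centring. RMER10B at bases 1 to 75 had 1.84% and 4.08% in ESCs and 74.5% and 79.2% in ESC-PGCLCs, and MER70A at 90 to 471 had 7.97% and 5.50% against 76.4% and 78.9%. Among MT2 rows, MT2B1 at 1 to 489 rose by 68.4 points in ESC-PGCLCs (limma adjusted p = 0.000685) and by 55.5 in pESC-PGCLCs (limma adjusted p = 0.00194). Of the 8 MERVL-int rows 1 rose in each comparison, that at 3561 to 4232, by 16.5 and 16.3 points, and no MT2_Mm row was called, a count too small to set apart from the shares of all features above. MT2C_Mm at 121 to 468 rose by 30.0 and 35.5 points, although its ESC-PGCLC libraries were at 47.5% and 23.9%. ERVL-B4-int at 3544 to 4436 fell, by 30.9 points in ESC-PGCLCs (limma adjusted p = 0.00139) and 34.9 points in pESC-PGCLCs (limma adjusted p = 0.000985).

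The interaction of origin and induction, which asks whether the change on induction differed between the lines, called no ERVL row (0 of 862 with limma, 37 at an unadjusted p under 0.05, smallest adjusted p = 0.637), where 0.0365% of all features and 0.0327% of repeat rows were called. Without ESC-PGCLC replicate 1 it called 8. The difference between the counts of 206 and 143 was therefore not shown to reflect a different response.

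**Figure D5:**
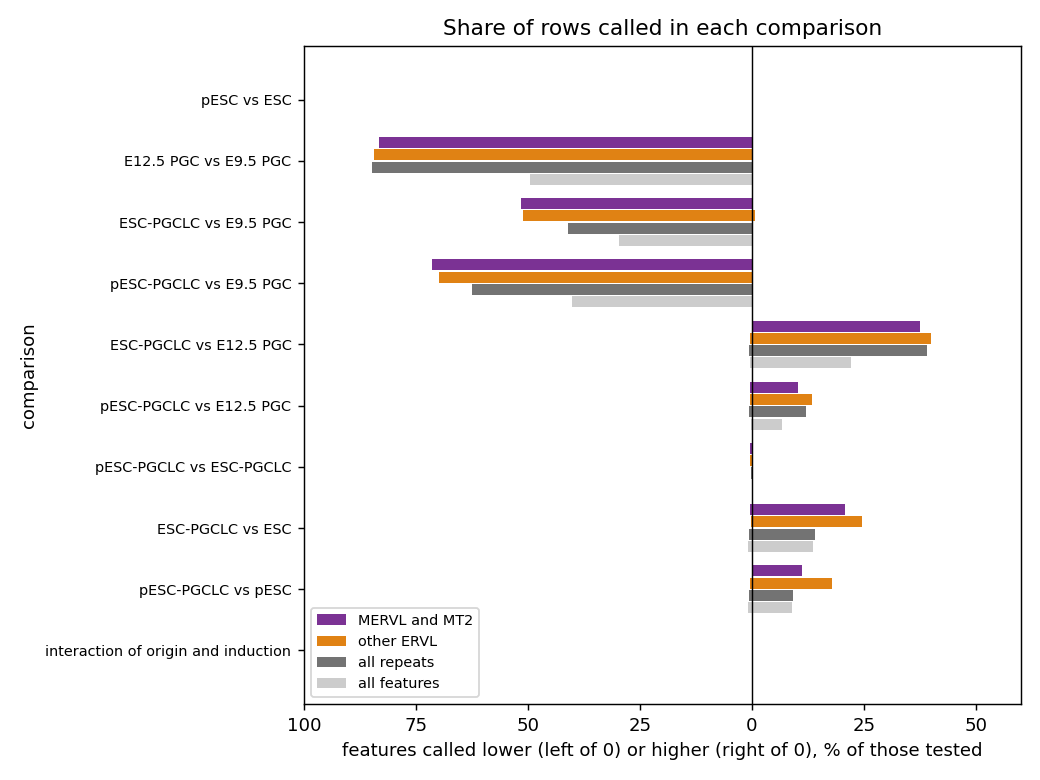
Share of rows called (%, x axis; lower to the left of 0, higher to the right) in each of the 10 comparisons (y axis) for MERVL and MT2 rows, other ERVL rows, all repeat rows and all features. ERVL bars follow the repeat bars from E9.5 to E12.5 (83.3% and 84.4% against 84.9%) and are longer than them on induction, most of all for other ERVL rows.

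The element names whose mean profile over the 12 libraries was most like that of MT2_Mm were MLT2C2 (Pearson r = 0.942, 3 rows), LTR40A1 (r = 0.938, 1 row) and MERVL_2A-int (r = 0.937, 12 rows). These correlations describe 12 libraries that share the rise at E9.5. By mean level over the 12 libraries the highest rows were MT2B at bases 212 to 281, with 66.7% to 100%, RLTR28 at 2 to 521 and LTR67B at 532 to 620. RLTR28 had 94.7% and 83.8% in ESCs, 97.9% and 94.3% at E9.5, then 51.0% and 55.4% at E12.5. The lowest were LTR41 at 71 to 162, which did not exceed 1.98% in any library, LTR83 at 261 to 379 and RMER15-int at 2678 to 3884.

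Genes of the MERVL network were read from the promoter rows of the same files. Of 29 genes known for expression at the 2-cell stage, 3 had a promoter level in any library and 1, Arg2, in all 12 (1.90% to 2.83%). Zfp352, a zinc-finger gene of the 2-cell stage, had levels in the 8 PGC and PGCLC libraries, 93.5% and 94.1% at E9.5, 64.3% and 79.0% at E12.5, 84.4% and 86.1% in ESC-PGCLCs, while pESC-PGCLCs had 81.7% and 82.5%. Its fall of 22.2 points to E12.5 was called (limma adjusted p = 0.000884). No level was at hand for most 2-cell genes.

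Of 8 activators, 3 had levels in all libraries and only Dppa2 was called in any comparison. Of all features 49.6% were called from E9.5 to E12.5, and 14.6% and 9.66% on induction from ESCs and pESCs. A count out of 3 promoters is too small to set against these shares. Dppa2 (chr16, 48303908 to 48319723, plus strand, GRCm38), which activates Dux and through it MERVL, had 3.15% to 4.48% in the 4 stem cell libraries, 70.5% and 69.1% at E9.5, 47.1% and 48.1% at E12.5, 53.9% and 49.6% in ESC-PGCLCs, while pESC-PGCLCs had 45.1% and 42.7%. It rose by 48.0 points on induction from ESCs (limma adjusted p = 7.90e-05) and by 40.1 from pESCs (limma adjusted p = 0.000169). Stem cells were below every other library in Dppa2. Gata2 went the other way without a call, with 7.68% to 11.3% in the 4 stem cell libraries and 2.69% to 4.67% in the 8 PGC and PGCLC libraries. Nelfa stayed between 1.14% and 2.67% in all libraries.

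Of 29 repressors of MERVL, all with levels in 12 libraries, 5 fell from E9.5 to E12.5 and none rose, and 2 rose on induction from either line. For all features the shares called were 49.6% from E9.5 to E12.5, and 14.6% and 9.66% on induction from ESCs and pESCs. Many of the 29 stood near the floor in all 12 libraries, such as Myc at 1.17% to 2.10% and Sumo2 at 0.972% to 1.71%. Such promoters could not fall by 10 points, so the counts are not read against these shares. Among promoters without a call in these comparisons, those of the H3K9 methyltransferase gene Setdb1, its partner Trim28 and the H3K4 demethylase gene Kdm1a did not exceed 3.53% in any library, except for pESC replicate 1 with 11.2% in Setdb1. Mbd3 (chr10, 80392539 to 80399550, minus strand), a subunit of the NuRD complex, had 0.585% to 2.45% in stem cells, 88.2% and 90.0% at E9.5, 68.2% and 65.2% at E12.5, 73.9% and 74.3% in ESC-PGCLCs, while pESC-PGCLCs had 64.8% and 66.5%. Morc3 (chr16, 93832121 to 93876073, plus strand), which silences endogenous retroviruses, had 12.7% to 15% in stem cells and 58.8% and 59.9% at E9.5. Mbd3 rose by 72.0 points and Morc3 by 31.6 points on induction from ESCs (limma adjusted p = 7.45e-05 and 0.000545).

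Ehmt2 encodes the H3K9 methyltransferase G9a, and L3mbtl2 a subunit of the PRC1.6 complex, both needed to keep MERVL silent. Their windows around the start of transcription are shown because the levels of these promoters also fell from E9.5 to E12.5, and because the windows hold the CCGG sites at which MspI cuts. Capitals mark CpG, the sites whose methylation RRBS reads. The sequences are from RefSeq, build GRCm38.p6, 250 bases before to 50 after the start, Ehmt2 at chr17:34898224-34898523 and L3mbtl2 at chr15:81663639-81663938, both on the plus strand.
Ehmt2: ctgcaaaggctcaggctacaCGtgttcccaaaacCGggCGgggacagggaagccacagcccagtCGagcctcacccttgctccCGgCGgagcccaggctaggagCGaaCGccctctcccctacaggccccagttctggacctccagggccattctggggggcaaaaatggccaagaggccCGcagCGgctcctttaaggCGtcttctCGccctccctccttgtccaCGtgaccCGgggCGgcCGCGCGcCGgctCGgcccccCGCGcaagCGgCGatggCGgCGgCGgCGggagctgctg
L3mbtl2: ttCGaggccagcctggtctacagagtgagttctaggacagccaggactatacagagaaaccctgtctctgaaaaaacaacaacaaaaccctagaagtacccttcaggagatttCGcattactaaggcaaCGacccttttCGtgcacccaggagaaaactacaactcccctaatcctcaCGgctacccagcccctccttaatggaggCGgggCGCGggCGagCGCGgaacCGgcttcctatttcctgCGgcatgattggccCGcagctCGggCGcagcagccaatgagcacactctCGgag
The Ehmt2 window has 28 CpG and 4 CCGG, and the L3mbtl2 window 17 CpG and 1 CCGG. CCGG, which reads the same on both strands, is found in 52.8% of 32851 such windows. The interval over which the deposited promoter levels were taken is not given in the sources used here and may be wider. Ehmt2 had 18% to 23.6% in stem cells, 47.9% and 45.0% in E9.5 PGCs, and fell to 23.7% and 28.0% (limma adjusted p = 0.000942). L3mbtl2 had 48.3% to 63.7% in stem cells, 84.2% and 83.3% in E9.5 PGCs, and fell to 53.2% and 51.2% (limma adjusted p = 7.47e-05). Both were highest at E9.5, and the levels at E12.5 overlapped with those of stem cells for L3mbtl2 and lay just above them for Ehmt2.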

How the data were processed

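DNA methylation was measured by RRBS in 12 libraries, 2 for each of 6 groups taken from the labels. The authors deposited 1 table per library, in which each feature has a methylation level as a fraction of cytosine reads, corrected for bisulfite non-conversion with a lambda spike. Bismark 0.16.3, Bowtie2 and the build mm10 are named in the submitters' processing notes. Reads were kept when their best alignment was unique. The minimum coverage and the repeat annotation are not given in the sources used here, and read depth is unknown, so precision rests on the spread between libraries.

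Fractions were converted to percent. Levels were turned into log2 odds with an offset of 0.01 and fitted with limma 3.58.1 (R 4.3.3) to all features present in the libraries of a fit: ESCs with pESCs, PGCs with PGCLCs, and ESCs and pESCs with PGCLCs. Each p-value is two-sided, adjusted by the Benjamini-Hochberg method over all features tested. A call needed an adjusted p under 0.05 and 10 points. The procedure was tried on simulated data for pESCs against ESCs, E12.5 against E9.5 PGCs, and ESC-PGCLCs against ESCs. The other comparisons and the interaction were not simulated. Rows named were all of MERVL-int, MERVL_2A-int, MT2_Mm and MT2C_Mm, up to 3 called rows per direction and comparison with the largest difference in each of the 2 sets, and the highest and lowest rows, other rows being said to be chosen later. The members and gene lists were chosen with earlier results of these data known. Alternatives were another offset, untransformed levels, centring, a filter on low levels, 1 fit of all libraries, a replicate block, adjustment over repeats alone, medians, and leaving out each library. Promoter windows are RefSeq sequences of GRCm38.p6, and gene positions are from the GENCODE annotation.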

Additional observations from a re-analysis of the deposited data

Results flagged for a closer look

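Among the named rows, 2 moved in opposite directions on induction from the 2 lines, which is not a count over the whole ERVL class. In both rows the ESC-PGCLC libraries lay above both ESC libraries, and the pESC-PGCLC libraries lay below both pESC libraries. The LTR101_Mam row was named because it was called lower in pESC-PGCLCs than in ESC-PGCLCs, a choice that favours such a pattern. In LTR101_Mam at bases 340 to 627, ESCs had 74.5% and 54.3% and ESC-PGCLCs 77.4% and 80.4%, whereas pESCs had 63.9% and 59.8% and pESC-PGCLCs 59.0% and 57.8%. The changes differed by 17.9 points. In MERVL_2A-int at bases 4326 to 5374, ESCs had 40.1% and 30.3% and ESC-PGCLCs 49.1% and 46.3%, whereas pESCs had 35.2% and 35.1% and pESC-PGCLCs 35.0% and 35.1%, and the changes differed by 12.6 points. The fall in the pESC line was far smaller than the spread between the ESC libraries. The limma interaction test did not pass in either row, with an unadjusted p of 0.0686 and 0.0681 and an adjusted p of 1.0 in both.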

How the results depend on the processing

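Centring every library on its median gave 248 called rows for E12.5 against E9.5 PGCs, 92 and 164 for ESC-PGCLCs and pESC-PGCLCs against E9.5 PGCs, 112 and 12 for the same cells against E12.5 PGCs, 0 for pESC-PGCLCs against ESC-PGCLCs, and 285 for pESC-PGCLCs against pESCs. In a fit of all 12 libraries, 286 and 145 rows were called for ESC-PGCLCs against E9.5 and E12.5 PGCs, 7 for pESC-PGCLCs against E12.5 PGCs and 0 between the PGCLCs. Between the PGCLCs the count was 18 with an offset of 0.1, 23 on untransformed levels and 0 with the replicate block. The replicate differences of ESCs and pESCs correlated across features (r = 0.52, and 0.48 over ERVL rows), those of the other pairs of groups between −0.06 and 0.18, but 2 pairs per comparison do not show that the numbers pair the libraries, and the block moved no other count by over 1.5 times. The cause of these moves was not tested.

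Without 1 library, the counts ranged from 0 to 6 for pESCs against ESCs, 674 to 688 for E12.5 against E9.5 PGCs, 372 to 395 and 534 to 562 for ESC-PGCLCs and pESC-PGCLCs against E9.5 PGCs, 253 to 285 and 0 to 24 against E12.5 PGCs, 0 to 9 between the PGCLCs, 117 to 380 for ESC-PGCLCs against ESCs, 68 to 113 for pESC-PGCLCs against pESCs, and 0 to 8 for the interaction. A library left alone in its group was assumed to vary like the other groups.

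As medians over rows, MERVL and MT2 levels were 43.2% in pESCs, 67.6% at E9.5, 53.9% in ESC-PGCLCs and 49.5% in pESC-PGCLCs, and other ERVL levels 38.3% in pESCs, 62.5% at E9.5, 39.2% at E12.5, and 50.2% and 45.5% in the respective PGCLCs. With every row of a library, MERVL and MT2 rows had 65.2% at E9.5 and 49.3% in pESC-PGCLCs, and other ERVL rows 61.2% and 38.9% at E9.5 and E12.5. The gap between the sets, by medians, was 2.22 points in ESCs, 3.70 in ESC-PGCLCs and 4.02 in pESC-PGCLCs, and with every row 3.98 at E9.5. Without RMER10A and RMER10B, chosen after seeing the data, it was 1.73 in ESCs, 2.85 in pESCs, 4.04 at E9.5, 3.98 at E12.5, and 3.06 and 2.86 in the respective PGCLCs.

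Among tests of single rows or promoters called in the reported or the alternative fit, the sign turned in 7, all after centring. For E12.5 against E9.5 PGCs the differences became 1.01 points for MERVL_2A-int at 4326 to 5374 and 5.23 at 756 to 2230. For pESC-PGCLCs against E9.5 PGCs they became 0.283 for the Zfp352 promoter, 1.52 for MERVL-int at 1215 to 2461, and 0.751 and 0.409 for the same MERVL_2A-int rows. For ESC-PGCLCs against ESCs that of MERVL-int at 1 to 2468 became −12.7 points. Of 3934 tests of single rows and promoters under the alternatives, 3597 kept their side of the threshold without such a turn. A further 259 no longer passed and 71 newly passed. Direction was compared only where either fit made a call, so a change of sign in an uncalled test is not counted.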
